A study of Mus musculus with 24 samples.

Results

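The 9 genes studied here mark the striatum or the septum, forebrain structures outside the hippocampus, and were followed through 24 RNA sequencing libraries of mouse hippocampus. The 9 were taken by name from the 47593 genes of the count table: Drd1, Drd2, Adora2a, Rgs9, Pde10a and Ppp1r1b for the striatum, and Nkx2-1, Zic1 and Trpc4 for the septum. Each name occurred once in the table, and every gene was detected in every library. The question put to them was how much signal of neighbouring tissue the dissected hippocampi carried, and whether it differed with genotype or time.

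The libraries came from male mice of the C57BL/6J strain, 8 to 12 weeks old, either wild type (WT) or Tob KO, a line lacking the anti-proliferative gene Tob throughout the body. Mice of each genotype were naive, that is without fear conditioning, or were taken 15 min, 1 h or 3 h after it, with 3 biological replicates in each of the 8 groups. Total counts ranged from 28847989 to 41595972 per library. Tob1, the gene annotated for Tob, went against the genotype labels, at 40.4 ± 3.48 CPM (SD, n = 12), the library-scaled count that serves as the level here, in WT and 59.8 ± 6.57 CPM in Tob KO libraries, with no overlap in any of the 4 times, so the latter are called here the libraries labelled Tob-KO. Which part of the gene this line lacks is not given in the sources used here. The tissue label was not tested against another tissue. Zbtb20 and Wfs1, the most abundant of 9 genes listed as hippocampal markers, stood at 456 ± 63.6 and 163 ± 17.9 CPM (SD, n = 24). The libraries also divided into 10 with few transcripts of the choroid plexus, the secretory epithelium of the ventricles, and 14 with many. Ttr, its carrier of thyroid hormone, spanned 3.65 to 35.7 CPM in the former and 579 to 4210 CPM in the latter. All 3 WT libraries at 15 min were among the 10, against 1 of the 3 labelled Tob-KO at that time, and no labelled Tob-KO library at 1 h was.

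Most neurons of the striatum are spiny projection neurons. One class carries the D1 dopamine receptor (Drd1), coupled to production of cyclic AMP, and the other the D2 dopamine receptor (Drd2), which opposes it, together with an adenosine receptor that raises cyclic AMP (Adora2a). Both classes share machinery that shapes the signal inside the cell: RGS9 (Rgs9) shortens signalling by G proteins, PDE10A (Pde10a) breaks down cyclic nucleotides, and DARPP-32 (Ppp1r1b), once phosphorylated, inhibits protein phosphatase 1. The septum, which sends cholinergic and GABAergic axons to the hippocampus, arises from progenitors in which the zinc finger factor ZIC1 (Zic1) and the homeobox factor NKX2-1 (Nkx2-1) act. The channel subunit TRPC4 (Trpc4) is abundant in its lateral part. None of the 9 is fully restricted: spiny neuron genes such as Ppp1r1b and Pde10a are also used in some hippocampal neurons, Trpc4 is present in CA1 pyramidal cells, and mossy cells of the dentate hilus carry Drd2.

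In level, Ppp1r1b led the members when counts were divided by length, at 19.1 ± 4.41 CPM per kilobase of annotated exon (SD, n = 24). Zic1 at 8.42 ± 3.72, Pde10a at 7.21 ± 0.67 and Trpc4 at 6.67 ± 0.949 CPM per kilobase followed, with intervals of 1 SD on either side that overlapped. Rgs9 stood at 1.91 ± 0.215 and Drd1 at 1.73 ± 0.426 CPM per kilobase. Drd2 at 1.08 ± 0.406 and Adora2a at 0.592 ± 0.155 CPM per kilobase were lower, and the 1 SD interval of each overlapped that of the gene before it in this order. Nkx2-1 was lowest, at 0.235 ± 0.145 CPM per kilobase, which is 5 to 79 counts per library, so it is the member measured least precisely. For scale, the 2 of 20 other striatal genes with the highest CPM, Gng7 (a G protein subunit) and Adcy5 (the striatal adenylyl cyclase), stood at 44.8 and 26 CPM per kilobase.

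The members varied by very different amounts from library to library. Set against genes of like level, Zic1 was the most variable of the 9 members. Its coefficient of variation over 24 libraries was 44.2%, and only 12 of 4782 genes (0.251%) within 2-fold of its mean level had a higher one, against a median of 6.2%. Ppp1r1b at 23.1% was exceeded by 1.09% of genes of like level, and Nkx2-1 at 61.9% by 3.77%. Trpc4 at 14.2% and Drd2 at 37.5% were exceeded by 5.61% and 5.7%, and Drd1 at 24.6% by 9.59%. Pde10a at 9.3%, Adora2a at 26.3% and Rgs9 at 11.3% were less unusual, exceeded by 14.9%, 25.9% and 32.7% of such genes.

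**Figure D1:**
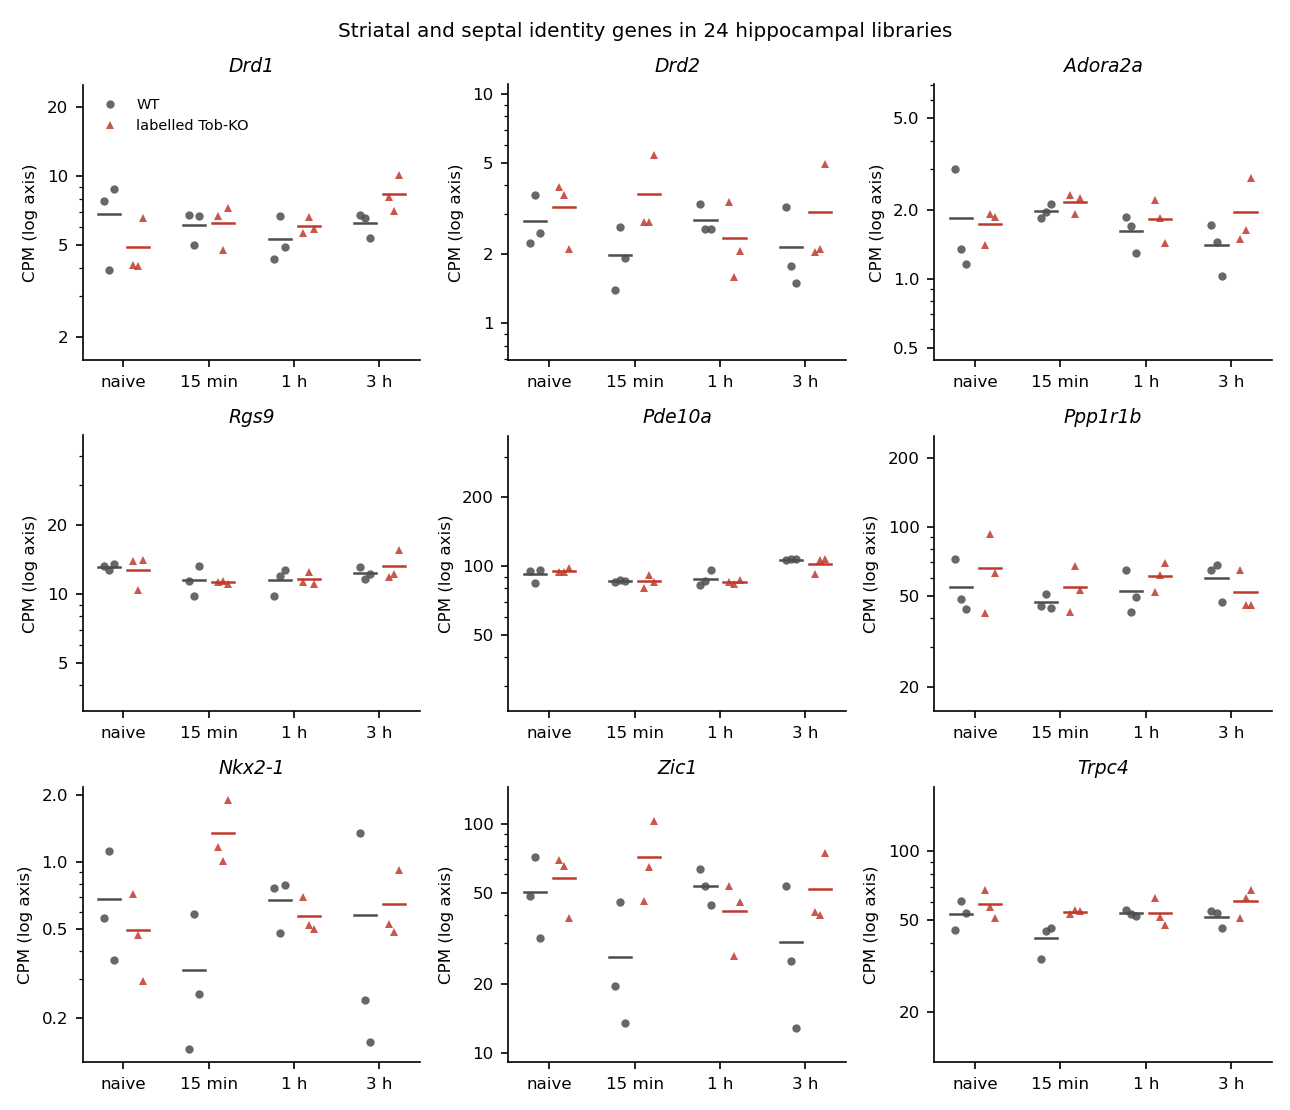
Level of each member in CPM (log axis) by time, with 1 point per library, circles for WT, triangles for libraries labelled Tob-KO and a bar at the mean of 3 libraries. Zic1 spread from 12.8 to 103 CPM and Nkx2-1 from 0.146 to 1.89 CPM, whereas Pde10a stayed between 80.6 and 107 CPM.

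The dopamine receptors came from few counts. Drd1 (chromosome 13, 54051183 to 54055705, reverse strand, GRCm38) had 122 to 349 counts per library. Its CPM in WT was 7.78, 3.92 and 8.82 in naive mice, 6.75, 5.04 and 6.7 at 15 min, 4.37, 6.74 and 4.94 at 1 h, and 6.8, 6.61 and 5.39 at 3 h. In libraries labelled Tob-KO it was 4.12, 4.08 and 6.58 in naive mice, 6.73, 4.79 and 7.29 at 15 min, 5.66, 6.66 and 5.87 at 1 h, and 8.12, 7.03 and 10.1 at 3 h. The genotypes overlapped at every time but 3 h, where each labelled Tob-KO library was above each WT library.

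Drd2 (chromosome 9, 49340627 to 49408177, forward strand) had 46 to 226 counts. At 15 min its CPM was 1.4, 2.64 and 1.92 in WT and 2.78, 2.76 and 5.42 in libraries labelled Tob-KO. These 2 groups did not touch, and the third labelled Tob-KO library stood far above the rest. In naive mice it was 2.25, 3.63 and 2.48 CPM in WT and 3.95, 3.64 and 2.1 CPM in libraries labelled Tob-KO. At 1 h the values were 3.3, 2.58 and 2.58 CPM in WT and 3.37, 1.6 and 2.07 CPM in the labelled Tob-KO. At 3 h they were 3.21, 1.77 and 1.5 CPM against 2.05, 2.11 and 4.98 CPM, so that the groups overlapped at all 3 of these times. Adora2a (chromosome 10, 75316877 to 75334784, forward strand), which accompanies Drd2 in the striatum, ranged only from 1.03 to 3 CPM with 33 to 107 counts, and its groups overlapped at every time.

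Of the signalling proteins, Rgs9 (chromosome 11, 109225355 to 109298129, reverse strand) ranged from 9.77 to 15.5 CPM. Ppp1r1b (chromosome 11, 98348404 to 98357796, forward strand) ranged from 41.9 to 93.5 CPM, with both ends of that range among the naive libraries labelled Tob-KO, at 41.9, 93.5 and 62.6 CPM against 72.3, 48.4 and 43.7 CPM in WT. At 15 min it was 45.1, 51.1 and 44.1 CPM in WT and 42.6, 67.3 and 53.2 CPM in the labelled Tob-KO. The values at 1 h were 64.6, 42.7 and 49.5 against 52, 61.4 and 69.3 CPM, and those at 3 h 65.1, 68 and 47.1 against 64.6, 45.8 and 45.7 CPM. Its groups overlapped at every time. Ppp1r1b lies 4.13 Mb from Tob1 on the same chromosome, and Rgs9 lies 15.01 Mb from Tob1. A noncoding gene on the opposite strand, 1700003D09Rik, overlaps 7079 bp of Ppp1r1b. Whether reads were counted by strand is not given in the sources used here, so reads of such overlapping pairs may be exchanged between them.

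Pde10a (chromosome 17, 8525372 to 8986648, forward strand) had the lowest coefficient of variation of the members and was the only one called between times. With all 24 libraries those calls came only from contrasts added after its levels had been seen. Its CPM in naive mice was 94.9, 84.7 and 96.1 in WT and 94, 94.2 and 98 in libraries labelled Tob-KO. After 15 min it was 85.2, 87 and 86.2 CPM in WT and 80.6, 91.4 and 85 CPM in the labelled Tob-KO, and at 1 h 82.4, 86 and 95.9 against 85.1, 83.7 and 87.2 CPM. At 3 h it was 106, 107 and 107 CPM in WT and 92.8, 106 and 107 CPM in the labelled Tob-KO, so 5 of the 6 libraries at 3 h stood above every library of the other times.

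Zic1, Nkx2-1, Trpc4 and Drd2 varied together across libraries, and the sequence before their starts is shown for that reason. The 200 bases that end 51 bases before the RefSeq start of each gene are printed from 5′ to 3′ on the strand of the gene, with every CG dinucleotide in capitals. They come from RefSeq on GRCm38.p6, where 7 of the 9 members had an entry. Bases just after the RefSeq start were found in an annotated transcript for Zic1, Nkx2-1 and Trpc4. For Drd2, whose annotated gene starts at 49340627, they were not, so its start is less certain. The windows are chr9:91365819-91366018 (reverse strand) for Zic1, chr12:56536959-56537158 (reverse strand) for Nkx2-1, chr3:54155807-54156006 (forward strand) for Trpc4 and chr9:49340153-49340352 (forward strand) for Drd2, and none of them holds an annotated exon.
Zic1: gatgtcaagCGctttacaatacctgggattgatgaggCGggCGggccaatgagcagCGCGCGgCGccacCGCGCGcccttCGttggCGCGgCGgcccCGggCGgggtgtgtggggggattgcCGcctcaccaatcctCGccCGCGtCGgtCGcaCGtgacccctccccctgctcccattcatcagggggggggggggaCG
Nkx2-1: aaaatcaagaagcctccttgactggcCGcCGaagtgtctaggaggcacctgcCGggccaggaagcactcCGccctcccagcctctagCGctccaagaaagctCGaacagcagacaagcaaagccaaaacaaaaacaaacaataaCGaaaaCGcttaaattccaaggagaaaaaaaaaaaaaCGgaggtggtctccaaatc
Trpc4: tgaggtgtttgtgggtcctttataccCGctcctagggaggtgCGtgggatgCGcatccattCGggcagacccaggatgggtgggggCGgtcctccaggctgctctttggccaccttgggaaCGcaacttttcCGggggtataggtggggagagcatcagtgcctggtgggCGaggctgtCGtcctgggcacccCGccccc
Drd2: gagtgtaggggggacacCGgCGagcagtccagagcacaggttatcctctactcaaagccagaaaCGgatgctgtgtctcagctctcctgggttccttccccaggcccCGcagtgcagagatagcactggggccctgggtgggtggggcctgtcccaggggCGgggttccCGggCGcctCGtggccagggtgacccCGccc
Zic1 held 24 CG dinucleotides in this window, a number that 5.6% of 32851 such windows reached or passed. Trpc4 held 10, Nkx2-1 and Drd2 held 9 each, a number reached by 32.1% of windows. The G and C content was 71.5% for Zic1, 67.5% for Drd2, 64.5% for Trpc4 and 49% for Nkx2-1, against a median of 51.5%. The letters TATAAA, searched on both strands, occurred in the window of Trpc4 but not in those of Zic1, Nkx2-1 and Drd2, and 9.1% of all windows held them. No shared feature of these 4 windows was tested beyond these counts.

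Zic1 (chromosome 9, 91358058 to 91365810, reverse strand) had 411 to 4293 counts per library. In WT its CPM was 48.1, 71.2 and 31.8 in naive mice, 19.5, 45.7 and 13.5 at 15 min, 63.3, 53.6 and 44.1 at 1 h, and 53.5, 25.2 and 12.8 at 3 h. In libraries labelled Tob-KO it was 69.3, 65.3 and 38.9 in naive mice, 46, 64.9 and 103 at 15 min, 53.3, 26.4 and 45.3 at 1 h, and 41, 40.1 and 74.2 at 3 h. The lowest 3 libraries were WT libraries of 15 min and 3 h, and the highest was the third labelled Tob-KO library of 15 min. Zic1 shares 3398 bp with Zic4 on the opposite strand, so the 2 may share reads. Zic2, on another chromosome, correlated with Zic1 over the 24 libraries at Pearson's r = 0.95, against 0.96 for Zic4.

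Nkx2-1 (chromosome 12, 56531958 to 56536908, reverse strand) followed the same libraries at a much lower level. At 15 min it had 5, 17 and 8 counts in WT, or 0.146, 0.583 and 0.256 CPM, and 35, 36 and 79 counts in libraries labelled Tob-KO, or 1.16, 1.01 and 1.89 CPM. The 2 groups were well apart at 15 min. At the other times they overlapped: 0.561, 1.12 and 0.363 CPM in WT against 0.719, 0.471 and 0.295 CPM in naive mice, 0.763, 0.481 and 0.786 against 0.7, 0.521 and 0.5 CPM at 1 h, and 1.34, 0.242 and 0.156 against 0.528, 0.488 and 0.922 CPM at 3 h. The antisense gene Gm26973 overlaps 1566 bp of Nkx2-1.

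Trpc4 (chromosome 3, 54156035 to 54318471, forward strand) moved over a narrower range, from 33.9 to 68 CPM. At 15 min it was 33.9, 45.1 and 46.3 CPM in WT and 53.4, 55.5 and 54.7 CPM in libraries labelled Tob-KO, again without overlap. Group means at the other times were 53.4 ± 7.56 and 58.8 ± 8.54 CPM in naive mice, 53.6 ± 1.56 and 53.9 ± 7.68 CPM at 1 h, and 51.8 ± 4.79 and 60.7 ± 8.52 CPM at 3 h (SD, n = 3, WT first), with overlap at each.

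The comparison of genotypes at each time used edgeR's exact test with the limits of the study: an adjusted p of at most 0.05 and a fold of at least 2. Only Nkx2-1 was called, and only at 15 min, where it was higher in libraries labelled Tob-KO by 2.07 ± 0.46 on the log2 scale (SE, 3 against 3, adjusted p = 0.00732), or 4.19-fold. Zic1 differed by 1.45 ± 0.42 (adjusted p = 0.0729), Drd2 by 0.89 ± 0.32 (adjusted p = 0.315) and Trpc4 by 0.39 ± 0.11 (adjusted p = 0.0984) in the same direction, none passing the test. The remaining 5 members lay between -0.03 and 0.22. In all, 102 of 18364 genes tested (0.555%) were called at 15 min. The study reported fewer genes at this time with the same limits, and the reason for the difference was not tested. Nkx2-1 lost its call without the first or the third WT library of 15 min (adjusted p = 0.0863 and 0.136) or the third labelled Tob-KO library (adjusted p = 0.109), and under edgeR's quasi-likelihood test (adjusted p = 0.448), whereas Zic1 was called without the second WT library (adjusted p = 4.48e-07) or the first labelled Tob-KO library (adjusted p = 0.00439).

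No member was called at the other times, where the share of all genes called was 0.0218% for naive mice, then 0.033% at 1 h and 0.0274% at 3 h. The log2 differences of the 9 ranged from -0.47 to 0.27 in naive mice, from -0.36 to 0.22 at 1 h and from -0.21 to 0.76 at 3 h, with an adjusted p of 1 for each by the exact test. Unadjusted p-values under 0.05 were absent from the members except at 3 h, where Drd1 had one (0.42 ± 0.155 on the log2 scale, SE, edgeR exact test p = 0.0309). Counted by overlap alone, 4 of 9 members had all 3 labelled Tob-KO libraries above all 3 WT libraries at 15 min, namely Drd2, Nkx2-1, Zic1 and Trpc4, and 1 of 9, Drd1, at 3 h. The background of genes without overlap, in either direction, was 13.7% at 15 min and 12% at 3 h, and 11.5% in naive mice and 11.6% at 1 h, where no member was without overlap.

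**Figure D2:**
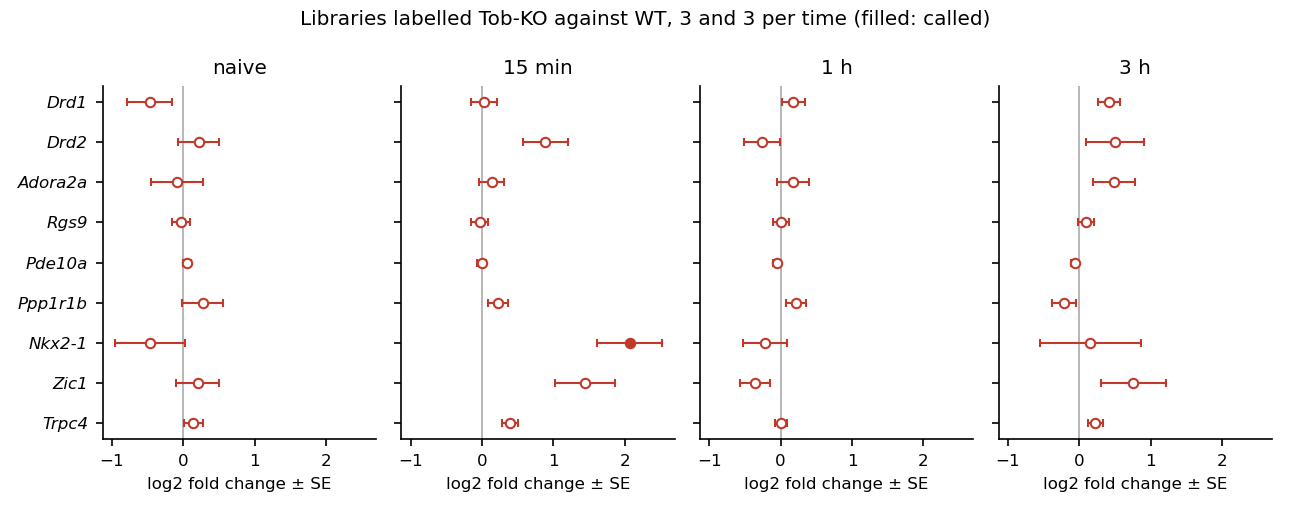
Log2 fold change of each member in libraries labelled Tob-KO against WT (3 and 3 libraries at each time), with bars for the SE, filled where called. The 15 min panel holds the only call, Nkx2-1 at 2.07, with Zic1 at 1.45, Drd2 at 0.89 and Trpc4 at 0.39 also to the right of 0.

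Over all 24 libraries, with time as a factor in edgeR's quasi-likelihood fit, no member differed by genotype at an adjusted p of at most 0.05, a limit that 0.462% of 19500 genes passed. Trpc4 came nearest, at 0.19 ± 0.07 on the log2 scale (SE, n = 12 and 12, adjusted p = 0.214), followed by Zic1 at 0.5 ± 0.26 (adjusted p = 0.403). Their 95% intervals reached from 0.06 to 0.32 and from -0.0016 to 1.01. Rgs9 and Pde10a had the tightest bounds, from -0.11 to 0.13 and from -0.07 to 0.04. No member had an adjusted p of at most 0.05 for the interaction of genotype and time, nor had any of the 19500 genes (0%), of which 797 had an unadjusted p under 0.05. DESeq2 called 0 as well. Nkx2-1 had the smallest p of the members (unadjusted p = 0.0246, adjusted p = 0.953, edgeR), so its difference at 15 min was not shown to differ from those at other times.

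Time was compared over both genotypes in the same fit. At 15 min and 1 h against naive mice 4.7% and 6.15% of genes were called, and no member. At 3 h against naive mice no gene was called (0%), although 1765 had an unadjusted p under 0.05 and DESeq2 called 12. Pde10a was lower by 0.13 ± 0.04 at 15 min (adjusted p = 0.0833) and by 0.11 ± 0.04 at 1 h (adjusted p = 0.122), and higher by 0.15 ± 0.04 at 3 h (adjusted p = 0.404), all on the log2 scale with SE. Without the second naive WT library the difference at 15 min passed (adjusted p = 0.0306), as did that at 1 h (adjusted p = 0.0389), and without the second labelled Tob-KO library of 15 min so did the former (adjusted p = 0.0434).

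A pair of contrasts, added after the levels of Pde10a had been seen, set 3 h against the earlier times. Since they were chosen for the levels of this gene, their p-values are no independent evidence. Pde10a was higher at 3 h than at 15 min by 0.28 ± 0.04 on the log2 scale (SE, n = 6 and 6, adjusted p = 0.000372), a difference of 21%, and than at 1 h by 0.26 ± 0.04 (adjusted p = 0.000814), a difference of 19.8%. It was the only member called in either, against 3.36% and 3.81% of all genes. The call stood with each library left out in turn, with adjusted p-values up to 0.00176 and 0.00324. Among the 20 other striatal genes Penk, the precursor of enkephalin, was the only one called, higher at 3 h than at 1 h by 0.45 ± 0.12 (adjusted p = 0.0385), and none was called at 3 h against 15 min.

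The other genes of these territories were read from lists. Of 12 other septal genes, 3 were called at 15 min, all higher in libraries labelled Tob-KO: Crhr2, a receptor for urocortins, by 1.45 ± 0.26 on the log2 scale (SE, adjusted p = 0.000982), Lhx8, a homeobox factor of cholinergic neurons, by 3.91 ± 1.05 (adjusted p = 0.0286), and Zic4 by 1.03 ± 0.27 (adjusted p = 0.0486). All 12 differed in that direction, with a median of 1.24, against 0.22 for the 9 members and -0.01 for all genes tested. The list was chosen with earlier results of these data known. It holds Crhr2 and Avpr1a, which the study itself names among the genes changed in Tob-KO mice at 15 min. The call of Crhr2 and the shared direction of the list are therefore no independent evidence. Ngfr, also on the list, lies 1.35 Mb from Tob1. None of the 19 other striatal genes tested was called, with a median of 0.04. Under the quasi-likelihood test none of these 3 septal genes passed (adjusted p = 0.448 for each), nor did any gene. The summed level of the septal list was 33.6 to 51.7 CPM in WT and 53.5 to 95.1 CPM in libraries labelled Tob-KO at 15 min. Of its cholinergic genes, Lhx8 had no count in 5 of the 24 libraries and up to 59 counts in the rest, and Chat had none in 1 and up to 65. Slc18a3 and Slc5a7, the vesicular acetylcholine and the choline transporter, had counts in every library, at means of 0.307 and 1.52 CPM.

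Transcripts of the choroid plexus were also higher in libraries labelled Tob-KO at 15 min, but did not go with the septal list at 1 h and 3 h. Of its 12 markers, 11 were called at 15 min, all 12 higher in libraries labelled Tob-KO with a median of 4.17 on the log2 scale. Their summed level was 41.4, 57.1 and 60.9 CPM in order of size in WT and 82.6, 1330 and 3460 CPM in libraries labelled Tob-KO. In naive mice the median log2 difference was 0.2 for the septal list and 1.2 for the choroid plexus. At 1 h it was -0.17 (3 of 11 septal genes higher) and 1.03 (12 of 12 choroid plexus genes higher). At 3 h it was 0.59 (11 of 12 higher) and -1.04 (0 of 12 higher). No gene of either list was called at these 3 times. The part of adjacent tissue in the difference of Nkx2-1 at 15 min was not tested, and in whole tissue fewer cells of a type cannot be told apart from less RNA per cell.

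Across the 24 libraries the septal members Zic1, Nkx2-1 and Trpc4 correlated with one another, and of the striatal members only Drd2 correlated with them. Correlations were computed on log2 CPM for all 36 pairs, with 100000 permutations and adjustment over the 36. The smallest p these can give is 1e-05. In all, 6 pairs had an adjusted p of at most 0.05, and they were the 6 pairs among Drd2, Zic1, Nkx2-1 and Trpc4. Drd2 and Zic1 were closest (Pearson's r = 0.87, permutation p = 1e-05, adjusted p = 0.00012, Spearman's rho = 0.93, permutation p = 1e-05, adjusted p = 0.00036, n = 24). Nkx2-1 correlated with Zic1 at r = 0.84 (permutation p = 1e-05, adjusted p = 0.00012, rho = 0.76, permutation p = 4e-05) and with Drd2 at r = 0.8 (permutation p = 1e-05, adjusted p = 0.00012, rho = 0.75, permutation p = 7e-05). Trpc4 was more loosely tied, at r = 0.69 to Drd2 (permutation p = 0.00015, adjusted p = 0.00135, rho = 0.72, permutation p = 0.00014), 0.61 to Zic1 (permutation p = 0.00171, adjusted p = 0.0123, rho = 0.65, permutation p = 0.00061) and 0.56 to Nkx2-1 (permutation p = 0.00441, adjusted p = 0.0265, rho = 0.47, permutation p = 0.023, adjusted p = 0.118).

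The 6 relations kept their sign when libraries were left out or divided. Without the 2 libraries farthest from the median of the first gene, r for the 6 pairs ranged from 0.46 to 0.85. On deviations from the 8 group means, which removes genotype and time, it ranged from 0.46 to 0.84. Within the 14 libraries rich in choroid plexus it ranged from 0.35 to 0.93, and within the 10 poor in it from 0.71 to 0.87. Within WT the lowest of the 6 was 0.57, and within libraries labelled Tob-KO it was 0.21, for Nkx2-1 and Trpc4. By contrast, Drd2 had an r of -0.16 with Drd1, 0.34 with Adora2a, 0.03 with Rgs9 and -0.09 with Pde10a, the genes with which it shares the striatum. None of the 10 pairs among Drd1, Adora2a, Rgs9, Pde10a and Ppp1r1b passed, with r from -0.33 to 0.49, and none of the 20 pairs between these 5 and the other 4.

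**Figure D3:**
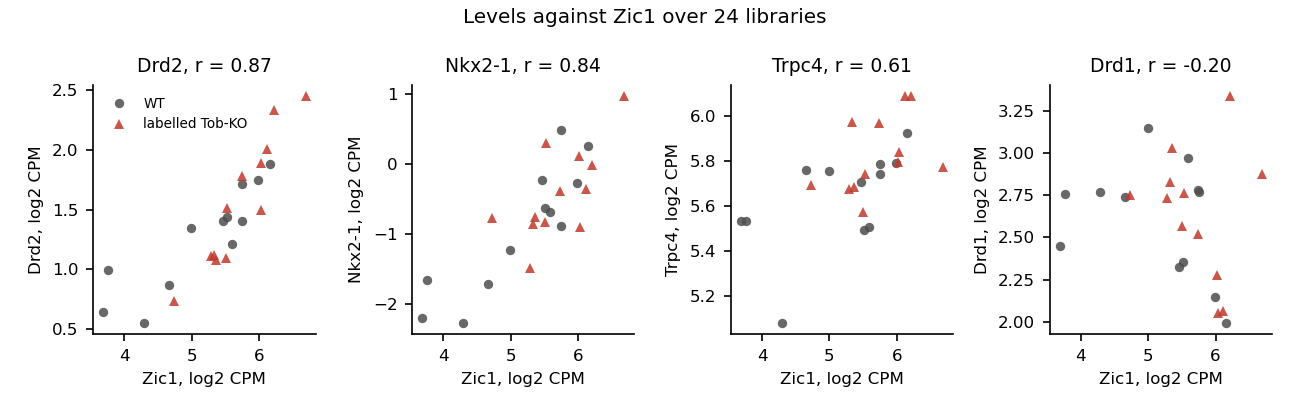
Log2 CPM of Drd2, Nkx2-1, Trpc4 and Drd1 against that of Zic1, 1 point per library (n = 24), circles for WT and triangles for libraries labelled Tob-KO. Drd2 rises with Zic1 at r = 0.87 over all libraries, 0.89 within WT and 0.94 within libraries labelled Tob-KO, Nkx2-1 at 0.84 over all and Trpc4 at 0.61, whereas Drd1 shows r = -0.2.

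The same division appeared against the marker lists, each scored as the mean of centred log2 CPM of its genes. Of 72 relations of 9 members with 8 lists, 19 had an adjusted p of at most 0.05. With the other septal genes, Zic1 had r = 0.91 (rho = 0.96), Drd2 0.9 (rho = 0.89) and Nkx2-1 0.87 (rho = 0.83), each with a permutation p of 1e-05 and an adjusted p of 0.00018, and Trpc4 had 0.61 (permutation p = 0.00158, rho = 0.65, permutation p = 0.00077, adjusted p = 0.00948). Without the 2 farthest libraries these 4 were at 0.91, 0.85, 0.86 and 0.61. Drd1, Rgs9, Pde10a and Ppp1r1b lay between -0.1 and 0.08 and Adora2a at 0.34. With genes of the ependyma, the lining of the ventricles, r was 0.74 for Zic1, 0.66 for Nkx2-1 and 0.55 for Drd2 (permutation p = 0.00013, 0.0006 and 0.00516, adjusted p = 0.00144, 0.0048 and 0.0232, rho = 0.63, 0.62 and 0.63 with permutation p = 0.00133, 0.00142 and 0.00112). Without the 2 farthest libraries these fell to 0.56, 0.45 and 0.34, so that of Drd2 rests on those libraries. The same members also passed with thalamic genes, at r = 0.57 for Zic1, 0.62 for Nkx2-1 and 0.51 for Drd2 (permutation p = 0.0039, 0.00122 and 0.0102, adjusted p = 0.0199, 0.00799 and 0.0388). Their r there was 0.52, 0.53 and 0.32 without the 2 farthest libraries. Of the 7 thalamic genes, Prkcd (r = 0.87) and Calb2 (r = 0.72) followed Zic1, and the rest lay between -0.41 and 0.19. The relation to this score is therefore not one of the list as a whole.

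With the other striatal genes, Zic1 and Nkx2-1 had higher r values, 0.81 and 0.77, than Drd1 at 0.29 and Adora2a at 0.54 (permutation p = 1e-05, 2e-05, 0.174 and 0.00691, adjusted p = 0.00018, 0.000288, 0.314 and 0.0282). Spearman's rho was 0.67, 0.77, 0.27 and 0.46 (permutation p = 0.00055, 1e-05, 0.206 and 0.0248), and r without the 2 farthest libraries was 0.78, 0.8, 0.16 and 0.6. The striatal list holds Six3 and Isl1, developmental transcription factors that were singled out after their values were seen: they correlated with Zic1 at r = 0.93 and 0.92 over ranges of 0.0641 to 6.78 and 0 to 2.92 CPM. Gnal was the only other of the 19 scored striatal genes with an r of at least 0.5. Among the septal genes 11 of 12 (91.7%) reached 0.5, as did 6 of 6 ependymal genes, 3 of 8 genes of GABA neurons, 2 of 7 of the thalamus and 1 of 12 of the choroid plexus. None did of the 3 hypothalamic, 8 neocortical and 9 hippocampal genes scored, and 564 of 17626 genes (3.2%) did among all at 0.2 CPM or more. Drd2 had r = 0.7 with the full striatal list (permutation p = 0.0002, adjusted p = 0.0018). Six3 and Isl1 were then left out, with no test, so a lower r for Zic1 follows in part from that choice. Drd1 at r = 0.71 and Adora2a at 0.59 now stood above Nkx2-1 at 0.33, Zic1 at 0.25 and Drd2 at 0.23. Rgs9 at 0.24, Pde10a at 0.07, Ppp1r1b at 0.02 and Trpc4 at -0.01 stayed below Zic1 and Nkx2-1.

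**Figure D4:**
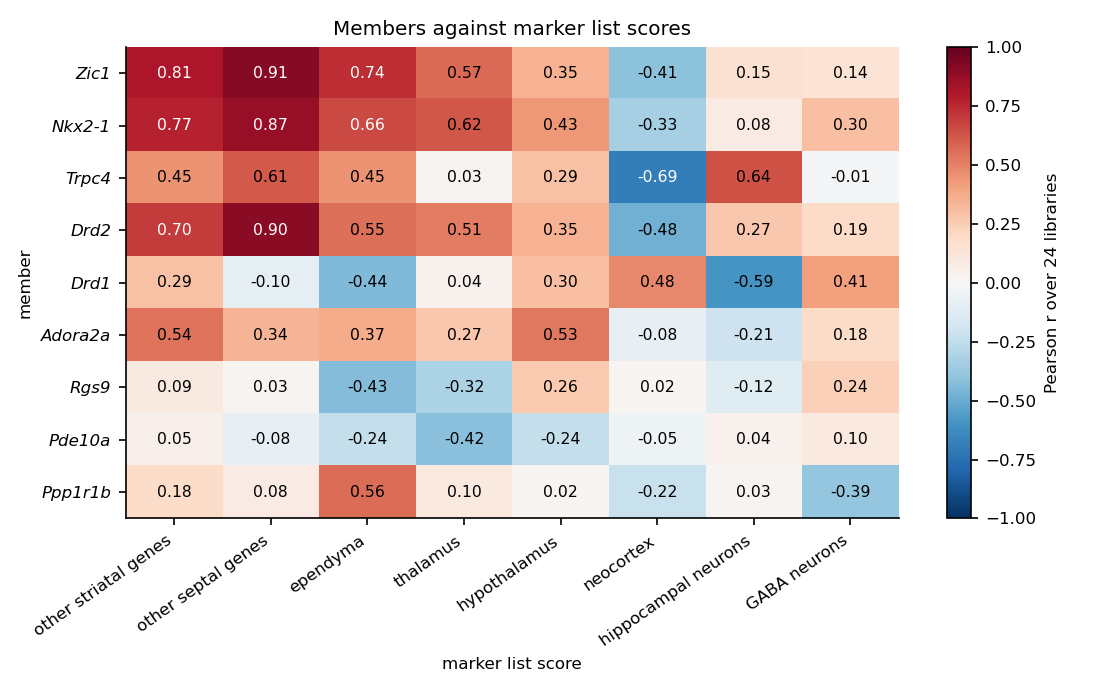
Pearson's r over 24 libraries between the log2 CPM of each member (rows) and the score of each marker list (columns), coloured from blue at -1 to red at 1. Zic1, Nkx2-1, Trpc4 and Drd2 share the highest values in the column of other septal genes, 0.91, 0.87, 0.61 and 0.9, and the 5 rows below them do not exceed 0.34 there.

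Drd1 and Trpc4 also moved with hippocampal transcripts, and Trpc4 with neocortical ones, where Drd1 passed by rho only. Drd1 was lower where the 9 markers of hippocampal neurons were higher (r = -0.59, permutation p = 0.0028, adjusted p = 0.0155, rho = -0.61, permutation p = 0.00218), and r was -0.49 without the 2 farthest libraries. With neocortical genes Drd1 had r = 0.48 (permutation p = 0.0178, adjusted p = 0.0612, rho = 0.52, permutation p = 0.00942, adjusted p = 0.0377) and 0.59 without the 2 farthest libraries. Trpc4 ran the other way, at r = 0.64 with hippocampal neurons (permutation p = 0.00073, adjusted p = 0.00526, rho = 0.63, permutation p = 0.00134) and -0.69 with neocortical genes (permutation p = 0.00014, adjusted p = 0.00144, rho = -0.76, permutation p = 6e-05). Without the 2 farthest libraries these were 0.65 and -0.6. Within the libraries rich and poor in choroid plexus the relation of Trpc4 to hippocampal neurons was 0.73 and 0.74 and that to neocortical genes -0.72 and -0.75. For Drd1 they were -0.82 and -0.3 with hippocampal neurons, and 0.78 and 0.04 with neocortical genes.

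Ppp1r1b moved with transcripts of the choroid plexus. Since that score divides the libraries into separate sets, its relations were computed within each set, 18 in all. Among the 14 rich libraries Ppp1r1b increased with the score at r = 0.87 (permutation p = 4e-05, adjusted p = 0.00072, rho = 0.78, permutation p = 0.0015, adjusted p = 0.0191), and r was 0.82 without the 2 farthest libraries. Among the 10 poor libraries r was -0.31 (permutation p = 0.386, adjusted p = 0.634, rho = -0.5, permutation p = 0.144). No other member had an adjusted p of at most 0.05 among the rich libraries, where r was negative for Nkx2-1 (-0.51, permutation p = 0.0611, adjusted p = 0.183, rho = -0.62, permutation p = 0.02, adjusted p = 0.072), Drd2 (-0.3), Zic1 (-0.23) and Trpc4 (-0.2). Among the poor ones Nkx2-1 had r = 0.91 (permutation p = 0.00019, adjusted p = 0.00171, rho = 0.87, permutation p = 0.00212, adjusted p = 0.0191). Zic1 had 0.83 (permutation p = 0.00448, adjusted p = 0.0202, rho = 0.75), Trpc4 0.83 (permutation p = 0.00266, adjusted p = 0.016, rho = 0.65) and Drd2 0.76 (permutation p = 0.0111, adjusted p = 0.0401, rho = 0.75), although their rho values did not pass (permutation p = 0.0173, 0.0494 and 0.0176, adjusted p = 0.072, 0.148 and 0.072). Without the 2 farthest libraries r was 0.81 for Nkx2-1, 0.8 for Zic1, 0.61 for Trpc4 and 0.45 for Drd2, so that of Drd2 rests on those libraries. The 10 poor libraries include the 3 WT libraries of 15 min, so this relation and the genotype difference at that time share libraries.

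**Figure D5:**
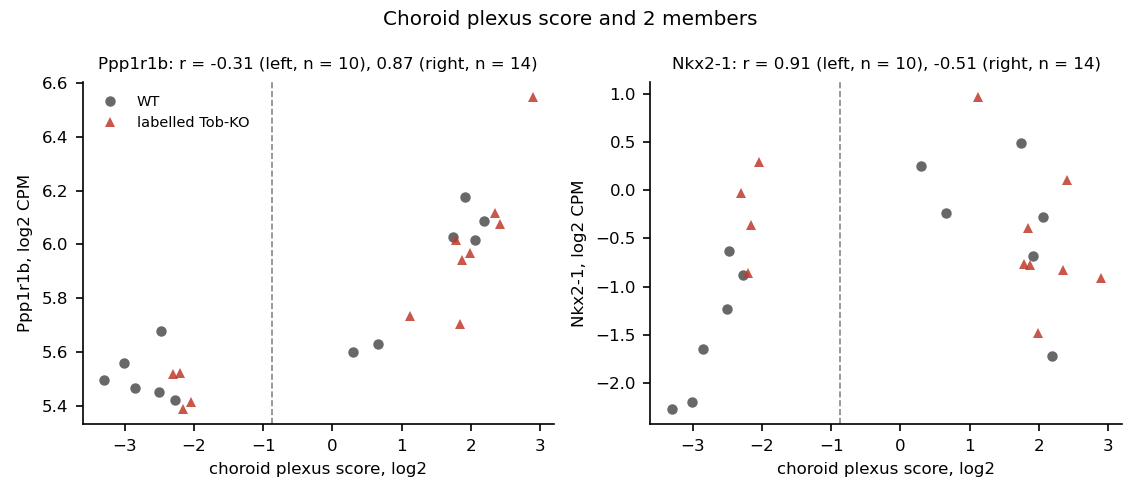
Log2 CPM of Ppp1r1b (left) and Nkx2-1 (right) against the choroid plexus score of each library (log2, mean over 12 genes), circles for WT and triangles for libraries labelled Tob-KO, with a dashed line between the 10 poor and 14 rich libraries. Ppp1r1b climbs with the score to the right of the line (r = 0.87) and has an r of -0.31 to its left, and Nkx2-1 climbs to its left (r = 0.91) and has a negative r to its right (-0.51).

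The genes most like each member were taken by Pearson's r over the 24 libraries among 14448 genes of at least 1 CPM, as a description. Zic1 was closest to Prdm12 (r = 0.96), Zic4 (0.96) and Pld5 (0.95). Drd2 was closest to Gm5607 (0.91), Ret (0.89), the receptor of glial cell line-derived neurotrophic factor, and Cacna2d2 (0.88). For Nkx2-1 these were Zfp521 (0.87), Gabrg1 (0.87), a GABA receptor subunit, and Magel2 (0.86), out of 14449 genes, and for Trpc4 Col25a1 (0.86), Dgkg (0.86) and Pcdh17 (0.85). Ppp1r1b stood closest of all to its neighbours in pattern, Eps8l2 (0.97), Vamp8 (0.95) and Cab39l (0.95). Drd1 was nearest to Npas2 (0.84), Vill (0.82) and Prkar2b (0.82), the last a regulatory subunit of protein kinase A. Rgs9 was nearest to Prrt3 (0.78), Oprk1 (0.74), the kappa opioid receptor, and Dhx30 (0.74), and Pde10a to Gatsl3 (0.8), Txlng (0.8) and Fam214a (0.77). Adora2a had the weakest match, Nnmt at 0.67.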

How the data were processed

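Libraries were made from poly(A) RNA of mouse hippocampus with a directional kit and sequenced as paired ends. The authors deposited raw read counts per gene for 47593 genes, obtained with STAR 2.6.1d and HTSeq 0.9.0 on GRCm38 per the submitters' processing notes. Whether counting used strand, which annotation release it used and how duplicates were handled are not given in the sources used here. Totals ranged from 28847989 to 41595972 counts, with a median of 31169386.

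Genotypes were compared at each time with the exact test of edgeR 4.0.16 (R 4.3.3) after TMM normalization, on genes at 0.2 CPM or more in 2 of 6 libraries, with the limits of the study (FDR and p at most 0.05, fold at least 2). Standard errors came from its quasi-likelihood fit, which also gave genotype, time and interaction over 24 libraries at an FDR of 0.05. Alternatives were DESeq2 1.42.0, RLE scaling, no filter, no fold limit, a quasi-likelihood test, a dispersion from 24 libraries, a replicate block and each library left out. Correlations used log2 CPM with a prior count of 2 and two-sided permutation tests (SciPy 1.17.1). List scores used genes at a mean of 0.2 CPM or more. The fits were tested on simulated data.

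The members and lists were chosen with earlier results of these data known. Genes to be named were the members, Tob1, of each list the 2 genes of highest CPM and any gene called, and the 3 genes most like each member. Not every such gene is printed. Outside this rule, Six3, Isl1, Gnal, Chat, Avpr1a, Ngfr and Calb2 were named after their values were seen. Slc18a3 and Slc5a7 also fall outside it.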

Additional observations from a re-analysis of the deposited data

How the results depend on the processing

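No fold change of a member that passed its test changed sign under an alternative. Of 1980 combinations of a member's fold change and an alternative, 6 lost a call, 5 gained one, and 12 changed sign by at least 1 SE without a call on either side. The single member called between genotypes at 15 min depended on the test: 1 was called in the exact test and under DESeq2, RLE scaling, no filter and no fold limit, against 0 with the quasi-likelihood test, 0 with a dispersion from 24 libraries and 0 with the replicate block, where Nkx2-1 had adjusted p-values of 0.448, 0.167 and 0.324. Leaving out each library gave 0 to 2 members at 15 min, and 0 to 1 for 15 min and for 1 h against naive mice; the cause was not tested. The replicate block changed no other call of a member. Same-numbered WT and labelled Tob-KO libraries had correlated deviations from -0.365 to 0.139, over 0.1 in 3 of 12 pairs, so the numbers were not taken to pair mice.

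Counts over all genes were less stable. For the 4 genotype comparisons, in order of time from naive mice to 3 h, the 4, 102, 6 and 5 calls became 1, 0, 0 and 1 with the quasi-likelihood test, 1, 6, 0 and 0 with the replicate block, 4, 16, 1 and 6 with a dispersion from 24 libraries, 7, 137, 22 and 12 without the fold limit and 5, 35, 4 and 4 with DESeq2. With a library left out they ranged from 4 to 53, 30 to 252, 4 to 155 and 3 to 16. Over 24 libraries the 90 calls by genotype became 293 with DESeq2 and 41 to 141 with a library left out. Against naive mice the 917 calls at 15 min became 1394 with DESeq2 and 366 to 1623 with a library left out, the 1200 at 1 h 670 to 1320, and the 0 at 3 h 12 with DESeq2. For 3 h against 15 min 655 became 1059 with DESeq2 and 350 to 747, and against 1 h 742 became 442 to 820. The interaction had 1 call without the filter and 0 to 1 with a library left out, the 1 without the first labelled Tob-KO library of 1 h. Nkx2-1 rested on 5 to 79 counts per library, which limits its precision most among the members.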
